A study of Rattus norvegicus with 252 samples.

Results

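Striatal gene expression was compared between 6-month-old and 2-month-old rats that were heterozygous for the Q130 knock-in allele (labelled Q130 KI), over 20 libraries of the 252 in the series (240 study libraries and 12 repeats), 10 per age. The members were chosen by their titles, as the study libraries of Q130 striatum at these ages, and repeat libraries were left out. The animals were Long Evans rats, every age group held 5 females and 5 males, and every library came from another animal, so the comparison is between animals and follows none of them over time. The age difference of Q130 rats was set beside that of wild-type (WT) Long Evans rats, which lack the allele and gave 10 striatal libraries per age, again from 5 females and 5 males. All 40 libraries belonged to batch 1. The series also holds cortex, hippocampus and cerebellum of the same animals, and groups of 12 months.

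Huntington disease is caused by an expanded stretch of CAG codons in the huntingtin gene, and Q130 denotes a knock-in of a long stretch. In this inherited disorder the medium spiny neurons of the striatum degenerate early. The striatum receives input from the cortex and the midbrain and helps to select movements, and its medium spiny neurons are known in patients and in mouse models for losing the expression of their characteristic genes as the disease proceeds. A contrast between ages in carriers holds whatever belongs to growth and maturation in any rat as well as what the allele adds, and the same contrast in WT rats holds growth and maturation without the allele.

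The files give genes as Ensembl rat identifiers and do not pair them with names, and none could be matched to the reference table used here. No gene is therefore given a name or a role, the targeted gene was not looked up, and markers of neurons, glia or vessels could not be read. Groups of genes are instead defined by where and when they were high in WT rats. A gene was called tissue-enriched when its WT mean in a tissue lay at least 2 log2 units above that in each of the other 3 tissues. Such groups check the tissue label of a library and stand in for regional markers.

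Total counts in the 20 libraries lay between 31.2 and 46.3 M (median 35.7 M), and 18091 to 18674 of 32883 listed genes were detected. The library labelled Q130 6 months male replicate 1 stood apart before any comparison. Its median log2 CPM (counts scaled to library size, on a log2 scale) correlation was 0.938 with the other striatal libraries and 0.986 with hippocampal libraries, whereas the other 19 Q130 libraries lay between 0.980 and 0.986 with striatum and between 0.927 and 0.939 with hippocampus. The 101 striatum-enriched genes averaged 0.47 log2 CPM in it, against 3.89 to 4.30 in the other 9 libraries of 6 months and 4.07 to 4.35 in the 10 of 2 months. The hippocampus-enriched genes averaged 3.82 log2 CPM in it and at most 0.35 in the other 19 libraries. Over 300 genes that varied between animals it was closest to its own animal's other tissues (r = 0.60, next animal 0.47). All 20 Q130 libraries were likewise closest to theirs. Those genes were chosen by their agreement within labelled animals over the study libraries, these 20 included, which favours such a match. The levels of sex-biased genes matched the label in 20 of 20 Q130 libraries. The results are given with and without this library, the only one of the 40 whose correlation was under 0.97. Age was also tied to the animals' identifiers: no first part of an identifier occurred in both Q130 age groups, so age and whatever that part marks cannot be told apart.

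Many genes differed between the ages in Q130 striatum, mostly by small amounts, and the count depended on that library. With all 20 libraries, 674 genes were higher and 524 lower at 6 months, 1198 of 15774 tested or 7.59%. Calls come from edgeR's quasi-likelihood F test with sex as a covariate and have an adjusted p (Benjamini-Hochberg) below 0.05. Without the library labelled male replicate 1, 1515 genes were higher and 1348 lower, 2863 of 15794 tested or 18.1%. All 1198 genes of the first fit were called in the same direction in the second. Among the 15750 genes tested in both, the second called 1663 more and reversed 0. The counts of 2 called genes were identical to those of another tested gene, so those cannot be told apart. Leaving out any 1 of the other 19 libraries gave between 896 and 1159 called genes, and in those fits 886 to 1059 of the 1198 kept their call and direction.

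**Figure D1:**
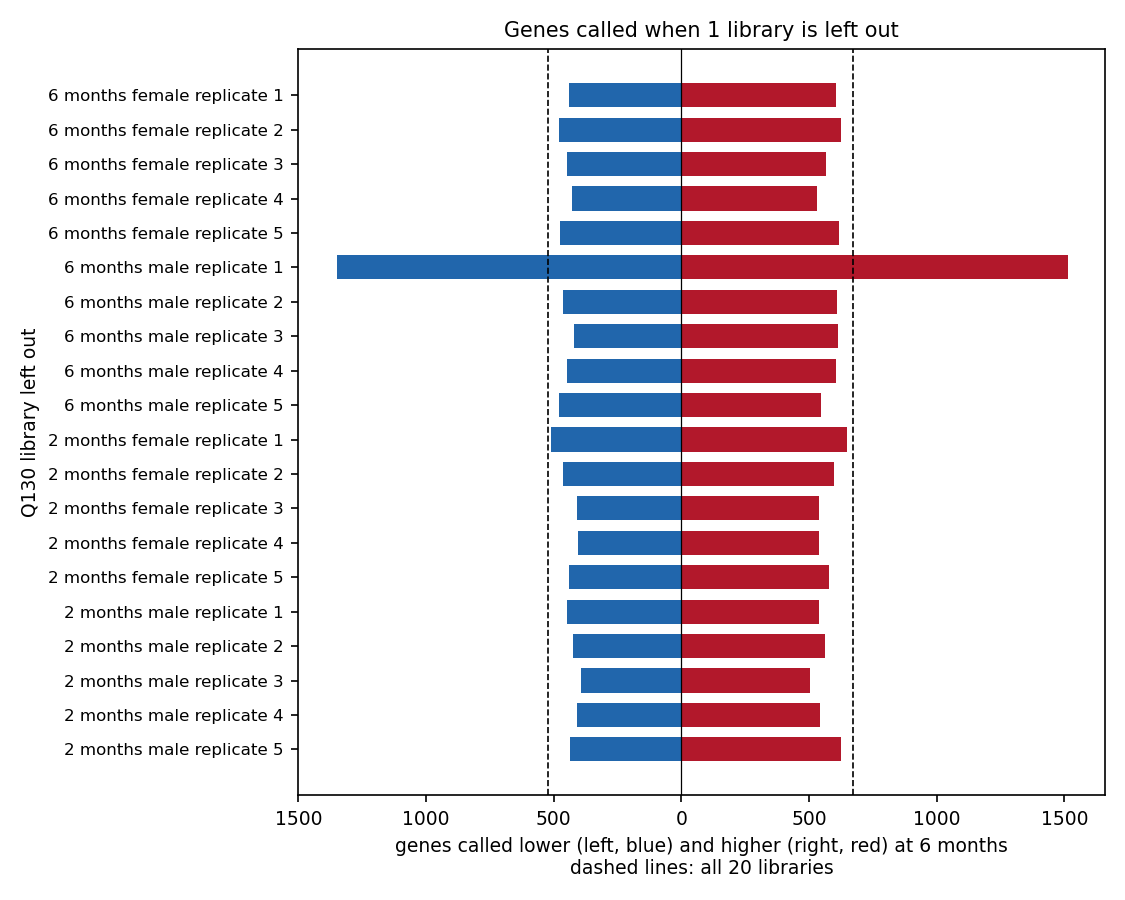
Number of genes called lower (left, blue) and higher (right, red) at 6 months in Q130 striatum when the library named on the vertical axis is left out, with dashed lines at the counts of all 20 libraries (524 and 674). The bar for 6 months male replicate 1 reaches 1348 and 1515, and the total of every other bar lies between 896 and 1159.

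The sizes were modest in both fits. Among called genes the median absolute log2 fold change was 0.32 with 20 libraries and 0.25 with 19. In the fit of 20 libraries 149 called genes were more than 1.5-fold higher and 77 more than 1.5-fold lower, and in that of 19 libraries 206 and 91. A change beyond 2-fold was found in 36 genes that rose and 23 that fell with all libraries, and in 44 and 26 without the library apart. Changes of 1.5-fold or more in either direction fell outside the 95% confidence interval for 88.9% of 14108 genes with a mean of at least 1 CPM in the fit of 20 libraries. Without the library apart this held for 92.6% of 14083 genes.

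Direction went with the level of the genes. In the lowest quartile of genes by mean level, 289 were called higher and 123 lower without the library apart, and in the highest quartile 404 were called higher and 565 lower. With all 20 libraries the lowest quartile held 155 higher and 69 lower, the highest 139 and 197. The share of genes called was 10.4% in the lowest quartile and 24.5% in the highest without the library apart, and the median absolute log2 fold change of called genes was 0.57 and 0.18 there. The highest quartile therefore held more calls of smaller size.

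Few genes separated the ages completely. All 10 libraries of 6 months lay above all 10 of 2 months for 47 genes (0.298% of those tested) and below them for 64 genes (0.406%). With the 9 libraries that remained at 6 months these were 154 (0.975%) and 130 (0.823%).

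Without names, 2 identifiers that rose and 2 that fell are given, as those with the largest changes among genes at a mean of 1 CPM or more and called in both fits. The largest rise was that of ENSRNOG00000015159. Its lowest, median and highest levels were 1.72, 13.5 and 25.0 CPM at 6 months, against 0.512, 1.72 and 3.11 CPM at 2 months. In 9 of 10 libraries of 6 months it was above every library of 2 months, and female replicate 2, at 1.72 CPM, lay within the range of the younger rats. The log2 fold change was 2.99 ± 0.37 (SE, edgeR adjusted p = 7.15e-05), and 3.09 ± 0.36 (adjusted p = 1.90e-05) without the library apart, where the gene was at 7.30 CPM. WT striatum also had the rise, 2.41 ± 0.58 (SE, edgeR adjusted p = 0.00785), with 1.27, 11.2 and 20.4 CPM at 6 months and 0.425, 1.71 and 4.90 CPM at 2 months. The age effect of Q130 rats minus that of WT rats was 0.50 ± 0.67 (SE, edgeR adjusted p = 0.843).

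ENSRNOG00000008664 rose in Q130 striatum too. Its lowest, median and highest levels were 0.504, 3.97 and 5.85 CPM at 6 months, against 0.372, 0.812 and 1.24 CPM at 2 months. The groups overlapped through female replicate 5 (0.504 CPM) and the library apart (1.03 CPM), while the other 8 libraries of 6 months lay above all younger ones. The log2 fold change was 2.21 ± 0.36 (SE, edgeR adjusted p = 0.000787) with 20 libraries and 2.34 ± 0.33 (adjusted p = 7.47e-05) with 19. In WT striatum it was 1.48 ± 0.44 (SE, edgeR adjusted p = 0.0259), and the difference from Q130 rats was 0.73 ± 0.58 (adjusted p = 0.711).

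Of the genes that fell, ENSRNOG00000002265 had the largest drop under this rule and groups that did not overlap. It was at 0.539, 2.56 and 2.97 CPM at 6 months, against 3.96, 6.07 and 7.37 CPM at 2 months (lowest, median and highest of 10). The value of 0.539 CPM was that of the library apart, and the next lowest was 1.79 CPM. The log2 fold change was -1.39 ± 0.18 (SE, edgeR adjusted p = 9.19e-05) with that library and -1.27 ± 0.10 (adjusted p = 1.88e-08) without it. WT striatum gave -1.28 ± 0.12 (SE, edgeR adjusted p = 5.17e-08), and the age effect in Q130 minus WT rats was -0.10 ± 0.23 (adjusted p = 0.912).

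ENSRNOG00000017546 was a low-level gene. It was at 0.391, 0.639 and 1.75 CPM at 6 months, against 1.26, 1.72 and 2.82 CPM at 2 months. Male replicate 5, at 1.75 CPM, overlapped with the younger rats, and the other 9 libraries of 6 months lay below all of them. The log2 fold change was -1.34 ± 0.22 (SE, edgeR adjusted p = 0.000880), against -1.30 ± 0.23 (adjusted p = 0.000359) without the library apart and -0.97 ± 0.16 (adjusted p = 0.000175) in WT striatum. Its difference between genotypes was -0.36 ± 0.28 (SE, edgeR adjusted p = 0.703). Without the library apart the difference between genotypes was -0.32 to 0.85 for the 4 genes, and none passed (lowest edgeR adjusted p = 0.533).

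**Figure D2:**
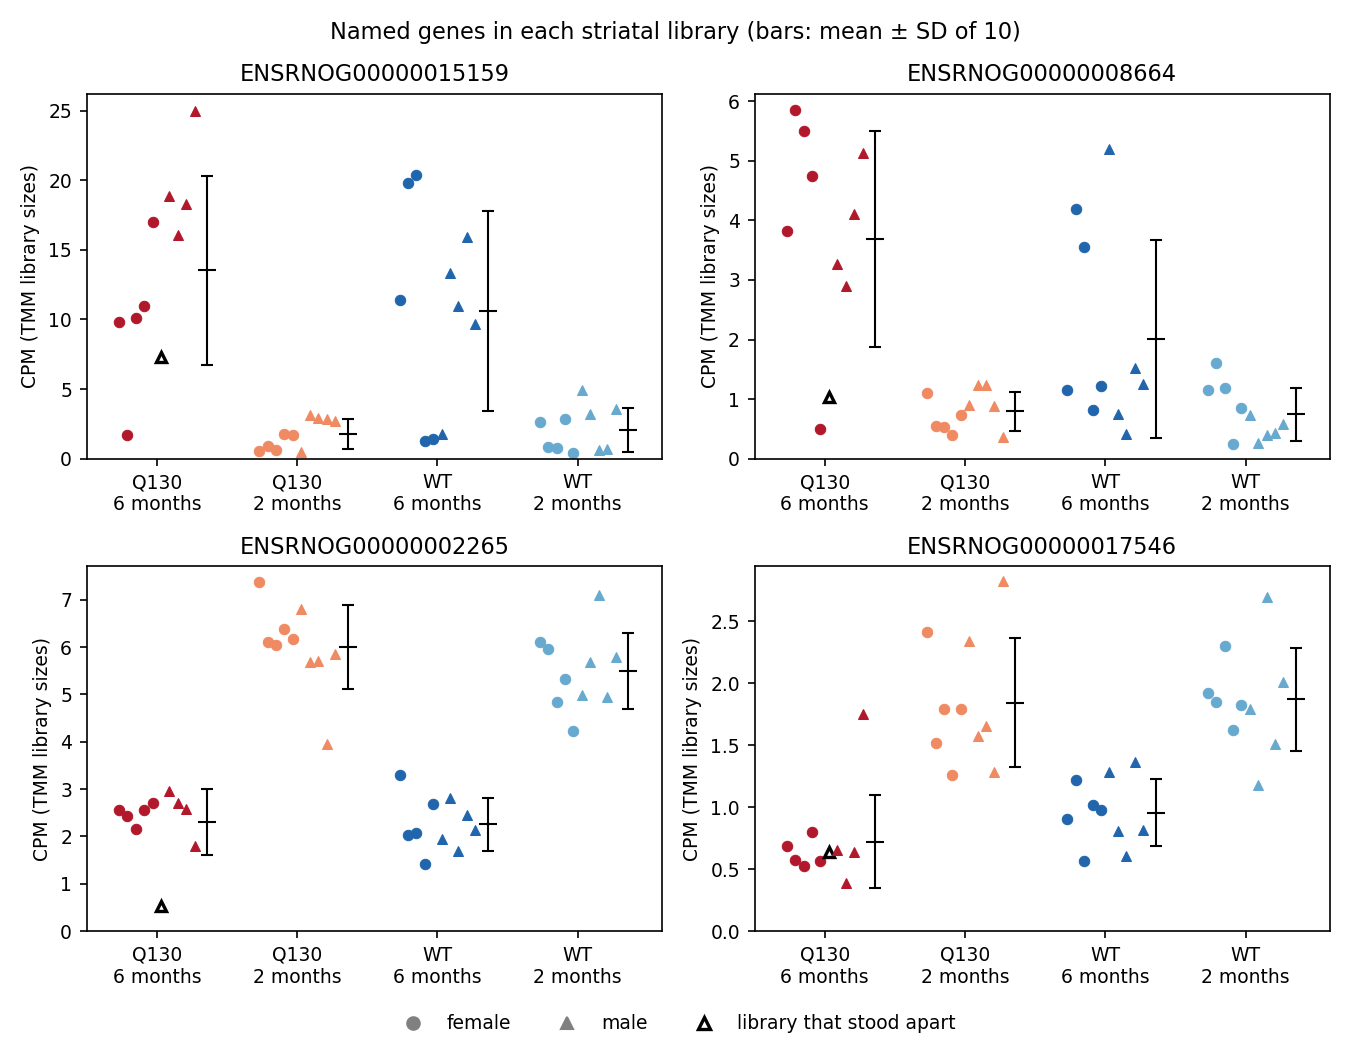
CPM of the 4 named genes in every striatal library of Q130 and WT rats at 6 and 2 months, with circles for females, triangles for males, an open triangle for the library apart and bars for mean ± SD of 10. ENSRNOG00000002265 is at 2.97 CPM or less in all Q130 libraries of 6 months and at 3.96 CPM or more in all of 2 months, and ENSRNOG00000015159 has 1 Q130 library of 6 months (1.72 CPM) at the level of the younger rats.

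The next question was how much of the age difference Q130 striatum had in common with WT striatum, where 1292 genes were higher and 1369 lower at 6 months (8.18% and 8.67%, together 2661 of 15785 tested or 16.9%). The fits share no library. Across 15687 genes tested in both, the log2 fold changes of Q130 without the library apart and of WT correlated at a Pearson r of 0.57 and a Spearman rho of 0.52, as a description over genes, which are not independent. Called in both with the same sign were 1272 genes, 44.5% of the Q130 calls and 47.9% of the WT calls, and 4 were called in opposite directions. With all 20 Q130 libraries r was 0.45 and 731 genes were called in both, 61.1% of the Q130 and 27.5% of the WT calls, with 0 in opposite directions.

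Most genes that rose with age in WT striatum were estimated higher at 6 months in Q130 rats. Without the library apart, 1291 of them were tested, of which 679 were called higher and 1 lower, and the estimate was above 0 for 1178. Their median log2 fold change was 0.19, against 0.00 over all tested genes. The background of calls in that fit was 9.59% higher and 8.53% lower. Of 1367 genes that fell in WT striatum, 593 were called lower and 3 higher in Q130 rats, 1213 had a lower estimate, and the median was -0.14. With all 20 libraries the counts were 408 higher of 1289 and 323 lower of 1366, against a background of 4.27% and 3.32%.

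The mean level of these genes separated the ages in every Q130 library but 1. Genes that rose in WT averaged 4.60 to 4.78 log2 CPM in the 9 Q130 libraries of 6 months and 4.38 to 4.43 in the 10 of 2 months, and the library apart was at 4.38. Genes that fell in WT averaged 4.64 to 4.75 log2 CPM at 6 months, the library apart included, and 4.83 to 4.94 at 2 months. A smaller set rose or fell in all 4 tissues of WT rats. Of the 111 that rose everywhere, 85 were called higher and 0 lower in Q130 striatum without the library apart (64 and 0 with it), with a median log2 fold change of 0.28. Of the 193 that fell everywhere, 129 were called lower and 0 higher (95 and 0 with the library), with a median of -0.26.

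**Figure D3:**
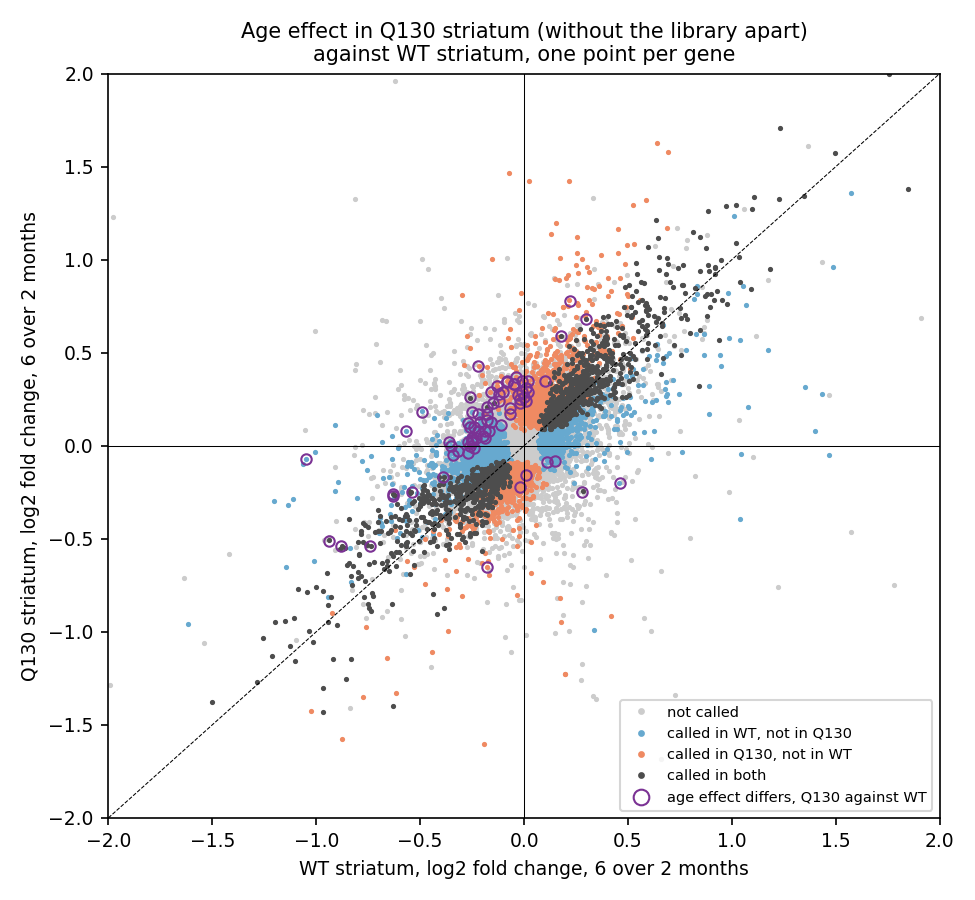
Log2 fold change, 6 over 2 months, in Q130 striatum without the library apart (vertical axis) against WT striatum (horizontal axis), with 1 point for each of 15687 genes, 13 of which lie outside the plotted range, and a dashed line of equal values. Dark points, called in both, lie along the dashed line, and most of the 76 circled genes (1 of them outside the range), whose age effect differed between genotypes, lie above it.

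A direct test of the difference between genotypes found few genes. With all 40 striatal libraries, 1 of 16048 genes (0.00623%) had an age effect that differed between Q130 and WT rats by edgeR's interaction term, and 1524 had an unadjusted p under 0.05. That gene, ENSRNOG00000011211, is named because it was the only one, after its values had been seen. It was at 47.4, 51.7 and 57.2 CPM at 6 months and 28.7, 41.4 and 49.9 CPM at 2 months in Q130 rats (lowest, median and highest of 10). In WT rats it was at 35.8, 43.4 and 55.2 CPM at 6 months and 42.1, 47.3 and 51.2 CPM at 2 months. The Q130 groups overlapped by a small margin and the WT groups widely. The age effect was 0.37 ± 0.07 in Q130 striatum (SE, edgeR adjusted p = 0.00172) and -0.08 ± 0.05 in WT striatum (adjusted p = 0.245), and their difference was 0.45 ± 0.08 (adjusted p = 0.0463), or 0.43 ± 0.08 (adjusted p = 0.00920) without the library apart. With RLE factors in place of TMM, and in 11 of 20 edgeR fits that each left out 1 Q130 library, 0 genes passed, so the call of this gene was lost there. In those fits 1514, and 1360 to 1615, genes had an unadjusted p under 0.05.

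Without that library 69 genes had a higher and 7 a lower age effect in Q130 than in WT rats, 0.429% and 0.0435% of the 16086 tested (together 76 or 0.472%), and 2210 had an unadjusted p under 0.05. Over the 69 genes the median log2 fold change was 0.17 in Q130 and -0.19 in WT striatum, and in 47 the estimates had opposite signs. Because the same libraries chose these genes by that difference, such values are favoured by the choice. The largest difference, 6.19, was that of ENSRNOG00000047516, named after its values had been seen, with log2 fold changes of 2.18 in Q130 and -4.04 in WT striatum. Its libraries spread widely within every group. It had 0 to 204 counts at 6 months and 0 to 121 at 2 months in Q130 rats, and 0 to 23 at 6 months and 2 to 249 at 2 months in WT rats. The next largest difference was 0.99. Of these 69, 31 were called higher and 7 lower with age in Q130 rats, and 2 were called higher and 41 lower in WT rats. None of the 76 was a tissue-enriched gene, with 101 striatum-, 36 cortex-, 38 hippocampus- and 215 cerebellum-enriched genes tested. At the share of 0.472% over all tested genes, hardly any call would be expected in groups of this size. The genotypes had only 1 first part of the animal identifier in common at 6 months, so the difference cannot be told apart from one that follows that part.

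Striatum-enriched genes were examined as a group because medium spiny neurons are the most abundant neurons of the striatum. In bulk tissue, fewer cells of a type and less RNA per cell cannot be told apart. All 101 were tested. Without the library apart 7 were called higher and 12 lower at 6 months in Q130 rats, 18.8% called against 18.1% of all tested genes, so that the share called was near the background. Lower estimates were found in 72 of the 101, against 8109 of 15794 over all genes. The median log2 fold change was -0.13 against 0.00 over all genes. The 12 that fell had log2 fold changes between -0.39 and -0.14, and the 7 that rose between 0.33 and 1.02.

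With all 20 libraries 1 was called higher and 0 lower (0.990% called, against 7.59% of all genes). The estimate was lower for 90 of 101, against 7411 of 15774 over all genes, and the median was -0.28. In WT striatum 17 rose and 3 fell (19.8% called, against 16.9% of all genes). There 56 of 101 estimates were higher, against 8032 of 15785 over all genes, and the median was 0.03. The difference of the age effects, Q130 minus WT, was called for 0 of the 101 genes by edgeR in either fit. Over all tested genes the share called was 0.472% without the library apart and 0.00623% with it, so 0 is near the background. The difference was negative for 83 of the 101 without the library apart, with a median of -0.13, against 7763 of 16086 over all genes. With that library it was negative for 95, with a median of -0.27, against 7573 of 16048. Genes of a group are not independent, so these counts are a description. Per library, the group's mean had a lowest, median and highest value of 3.89, 4.22 and 4.30 log2 CPM in the 9 Q130 libraries of 6 months, against 4.07, 4.29 and 4.35 in the 10 of 2 months. In WT rats these were 4.08, 4.16 and 4.31 at 6 months and 3.99, 4.12 and 4.26 at 2 months. The ages overlapped in both genotypes, and the highest median was that of Q130 rats at 2 months.

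**Figure D4:**
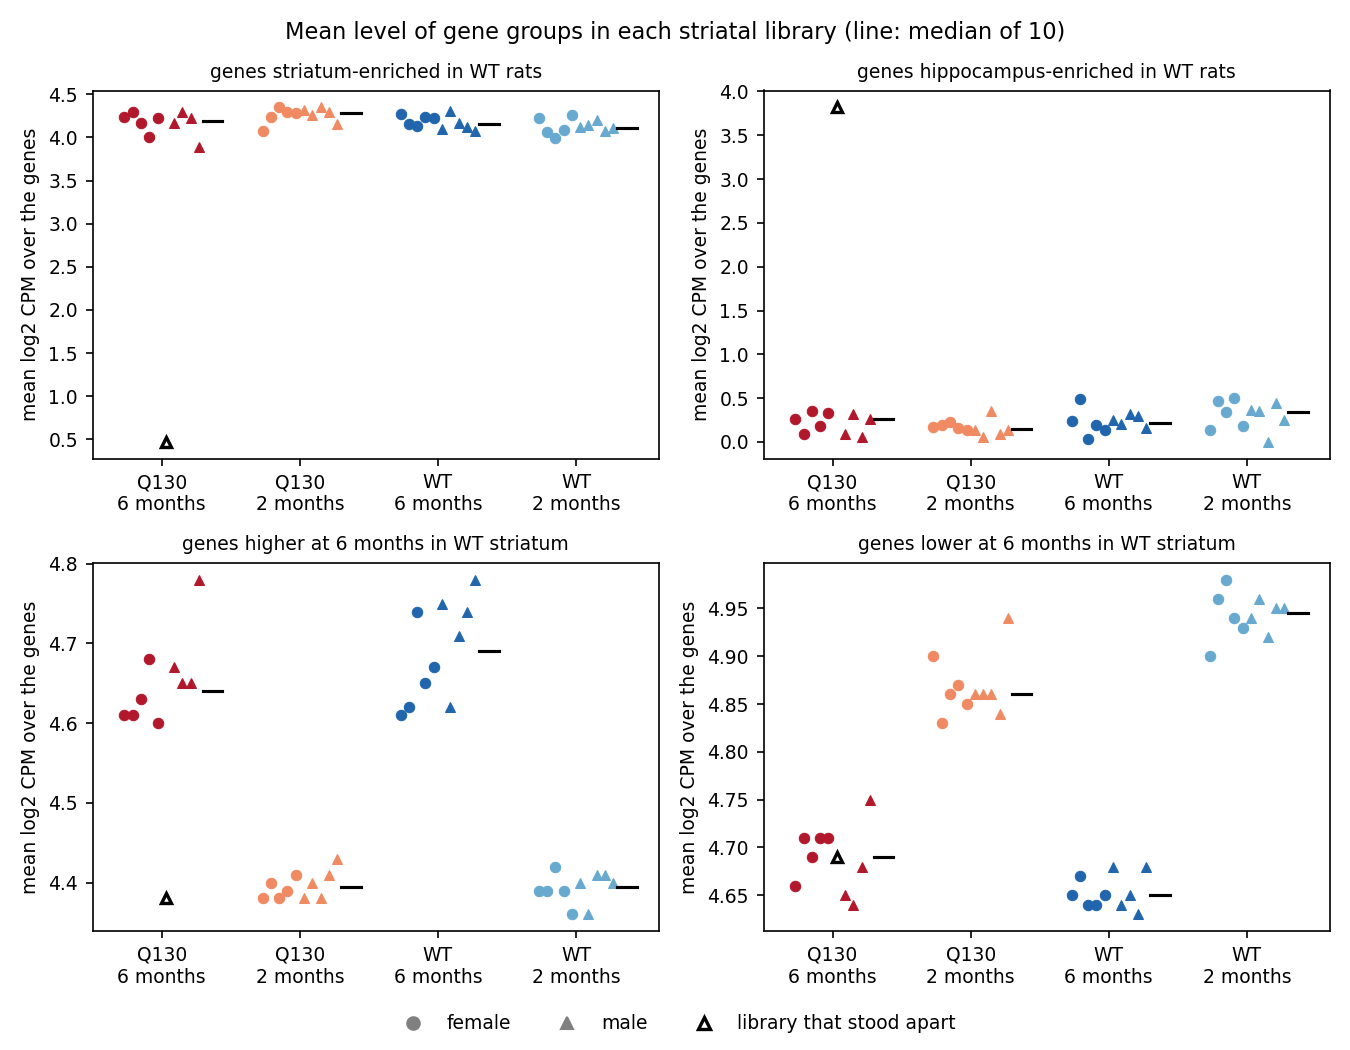
Mean log2 CPM of 4 groups of genes chosen from WT rats in each striatal library, with circles for females, triangles for males, an open triangle for the library apart and a line at the median of 10 (the WT libraries chose the groups, so their separation by age there is no result). The library apart lies at 0.47 for striatum-enriched and at 3.82 for hippocampus-enriched genes, and the groups that rose or fell with age in WT striatum separate 6 from 2 months in all Q130 libraries with the exception of the library apart, at 4.38 for the genes that rose.

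Hippocampus-enriched genes followed the library apart. With it, 37 of 37 tested had a higher estimate at 6 months, with a median log2 fold change of 0.86, yet 1 was called (2.70%, against 7.59% of all genes). Without it 20 of 36 had a higher estimate, the median was 0.06, and 4 were called higher and 1 lower (13.9%, against 18.1% of all genes). Of the cortex-enriched genes, 2 rose and 4 fell among 30 tested without the library (6 called), with a median of -0.02, and 1 rose and 2 fell among 31 with it (9.68% called), with a median of 0.10. The cerebellum-enriched genes, with ENSRNOG00000015159 among them, had 15 that rose and 13 that fell of 198 without it (14.1%) and 12 and 4 of 197 with it (8.12%). Their medians were 0.01 and 0.03. The shares called in these 3 groups were near or below those of all genes.

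**Figure D5:**
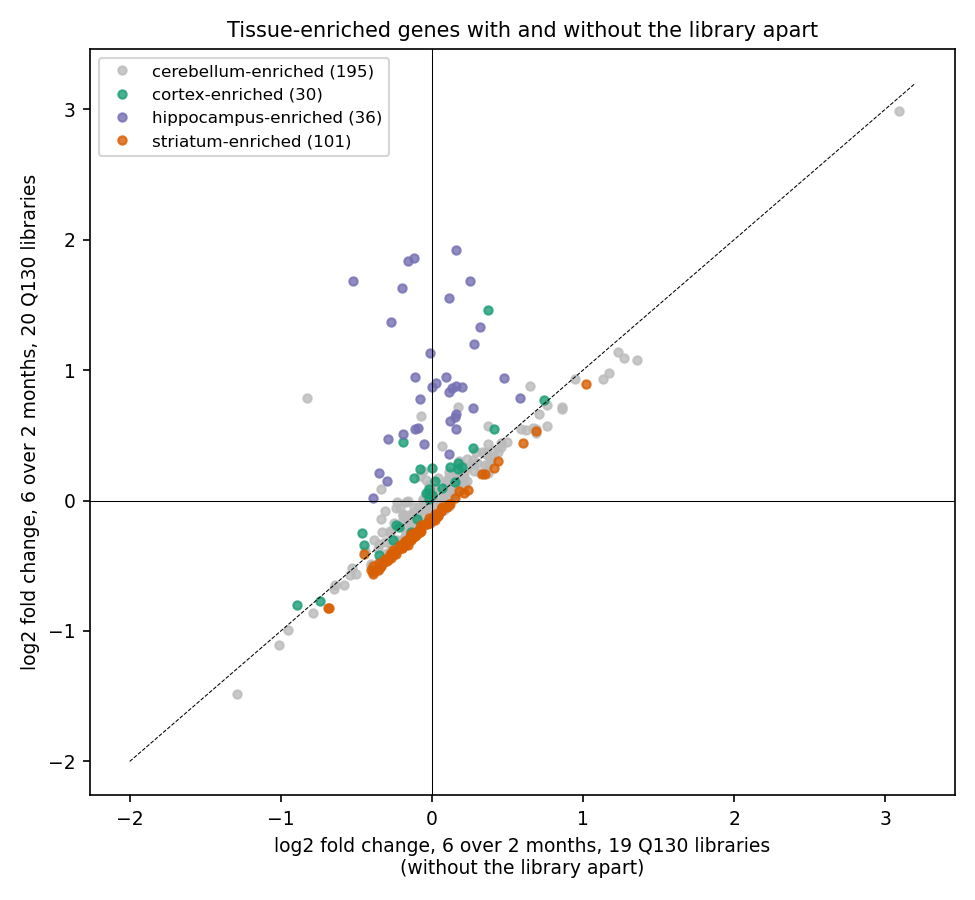
Log2 fold change, 6 over 2 months, of tissue-enriched genes with all 20 Q130 libraries (vertical axis) against that of 19 libraries without the library apart (horizontal axis), 1 point per gene, dashed line at equal values. All hippocampus-enriched genes lie above the line and at or above 0 on the vertical axis, where their median is 0.86, and the striatum-enriched genes, with a median of -0.28 there, lie mostly below the line.

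Both sexes contributed to the difference. In the 10 males 16 genes rose and 17 fell (0.102% and 0.109%, together 33 of 15627 or 0.211%), and without the library apart, which is labelled male, 550 rose and 495 fell (3.50% and 3.15%, together 1045 of 15699 or 6.66%). In the 10 females 605 rose and 444 fell (3.90% and 2.86%, together 1049 of 15531 or 6.75%). Males and females share no animal. Called in both sexes in the same direction were 398 genes without that library, 38.3% of the male and 38.0% of the female calls, with 0 in opposite directions. Of the 1048 female calls tested in males, 1007 (96.1%) had the same direction there, against 66.1% of all genes tested in both.

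Few genes passed a test of an age effect that differed between the sexes. With at most 5 animals per sex and age, few calls do not show that few genes differed. The interaction of age and sex passed the threshold for 0 of 15974 genes by edgeR with 20 libraries, 947 of which had an unadjusted p under 0.05. DESeq2 called 3 there and limma-voom 0. Without the library apart edgeR called 1 of 16010 genes (0.00625%) and 1479 had an unadjusted p under 0.05. DESeq2 called 19 and limma-voom 2. The gene was ENSRNOG00000020792, named after its values had been seen. In males it was at 5.99, 6.45 and 9.35 CPM at 6 months and 13.8, 15.1 and 15.9 CPM at 2 months (lowest, median and highest of 5). Females had 10.5, 11.4 and 11.9 CPM at 6 months and 12.9, 14.0 and 15.6 CPM at 2 months. The ages were separate in both sexes and further apart in males, where 9.35 CPM was the library apart. Its log2 fold change was -1.11 ± 0.11 in males without the library apart (SE, edgeR adjusted p = 0.000332) and -0.33 ± 0.07 in females (adjusted p = 0.00835). The male minus female difference was -0.78 ± 0.12 (SE, edgeR adjusted p = 0.0392), and -0.68 ± 0.15 (adjusted p = 0.737) with the library. WT striatum had a log2 fold change of -0.55 ± 0.08 for it over both sexes (SE, edgeR adjusted p = 1.55e-05).

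The other tissues of the same Q130 rats show which changes were also called outside the striatum. Of the 1515 genes that rose in striatum without the library apart, 955 were called higher in none of cortex, hippocampus and cerebellum, and 57 in all 3. Of the 1348 that fell, 795 were called lower in none and 111 in all 3. A gene that was not called, or not tested, in a tissue may still have changed there. The estimate had the striatal direction for 87.5% of striatal calls tested in cortex, against 68.4% of all genes. These shares were 80.1% and 64.5% in hippocampus, and 67.8% and 55.0% in cerebellum. Without libraries apart, 3.85% of 15759 genes rose and 4.89% fell with age in cortex (8.74% called), 1.82% and 2.42% of 15839 in hippocampus (4.25%) and 7.03% and 8.10% of 15722 in cerebellum (15.1%). In cortex 694 genes were called in the same direction, 24.5% of the striatal and 51.3% of the cortical calls, and 8 in the opposite one. In hippocampus 389 genes went the same way (13.7% of the striatal and 58.3% of the hippocampal calls) and 4 the opposite way. In cerebellum 674 went the same way (24.0% and 28.9%) and 83 the opposite way, the highest count of the 3 tissues. These tissues come from the same animals, so the counts are no independent repeat of the striatal comparison.

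A fit over the 80 Q130 libraries of all tissues, with the animal as a block, tested whether the striatal age effect differed from the mean of the other 3. By limma-voom, 38 genes had a more positive and 59 a more negative effect in striatum, 0.228% and 0.354% of the 16652 tested (together 97 or 0.583%). Without the 4 animals that had a library under 0.97 in any tissue, these were 356 and 329, 2.14% and 1.98% of 16645 (together 685 or 4.12%). Of the 1515 genes that rose in striatum, 261 had a more positive effect there than elsewhere (17.2%), and of 1346 that fell and were tested here, 226 had a more negative one. These genes were chosen by a call in striatal libraries that this test uses again, which favours these directions. Among the 101 striatum-enriched genes 2 differed upward and 5 downward without the 4 animals, with a median of -0.15. Over all tested genes 2.14% and 1.98% did so, with a median of -0.01, and no test was run on the group.

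ENSRNOG00000015159 was one of the genes that differed between tissues. Its log2 fold change was 3.09 in striatum, 1.78 in cortex, 2.30 in hippocampus and 0.17 in cerebellum of Q130 rats without libraries that stood apart. The striatal effect exceeded the mean of the others by 1.94 ± 0.47 (SE, limma-voom adjusted p = 0.0103) without the 4 animals, and by 1.52 ± 0.42 (adjusted p = 0.0731) with all 80 libraries. The gene was named for its large rise in these striatal libraries, so this excess is no independent result. That mean includes cerebellum, where the change was smallest and where the gene was enriched in WT rats. ENSRNOG00000002265 fell in every tissue, by 1.27 in striatum, 1.82 in cortex, 1.45 in hippocampus and 1.84 in cerebellum on the log2 scale, and its striatal effect did not pass the test of a difference (0.24 ± 0.17, limma-voom adjusted p = 0.515 without the 4 animals). ENSRNOG00000008664 and ENSRNOG00000017546 likewise did not pass it.

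At 12 months the 4 named genes were measured in another batch, so age and batch cannot be told apart. Among the 10 Q130 striatal libraries of 12 months, 2 (female replicate 2 and male replicate 3) had a correlation under 0.97. ENSRNOG00000015159 was at 11.7, 25.7 and 35.8 CPM (lowest, median and highest of 10), and at 23.8, 26.4 and 35.8 CPM in the 8 others. ENSRNOG00000002265 was at 0.902, 2.58 and 3.47 CPM, and had a lowest value of 1.77 and a median of 2.58 CPM in the 8. The median of each was the same or moved little without the 2 libraries, and the ranges narrowed. ENSRNOG00000008664 had medians of 0.812, 3.97 and 1.18 CPM at 2, 6 and 12 months, and its 12-month libraries ranged between 0.250 and 6.75 CPM, or between 0.560 and 6.75 CPM without the 2, with a median of 1.36 CPM. ENSRNOG00000017546 was at 0.296, 0.464 and 1.25 CPM at 12 months, and at 0.296, 0.398 and 0.905 CPM without the 2. A gene outside the 4, ENSRNOG00000011073, chosen after its values had been seen, did not pass the age test in Q130 rats. It was at 106, 111 and 147 CPM at 6 months and 92.8, 114 and 120 CPM at 2 months, where 147 CPM was the library apart. The log2 fold change was 0.03 ± 0.06 (edgeR adjusted p = 0.838), and -0.02 ± 0.04 (adjusted p = 0.729) without that library. In WT striatum it was at 129, 143 and 155 CPM at 6 months and 146, 151 and 156 CPM at 2 months. The age test passed there (log2 fold change -0.09 ± 0.03, edgeR adjusted p = 0.0440). The age effect in Q130 minus WT rats did not pass with all 40 libraries (0.12 ± 0.06, edgeR adjusted p = 0.569). It did not pass without the library apart either (0.07 ± 0.05, edgeR adjusted p = 0.537). At 12 months the gene was at 100, 108 and 140 CPM in the 10 Q130 libraries, and at 100, 108 and 117 CPM without the 2. The difference between genotypes at 1 age was not tested here.

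Repeat libraries exist for 6 of the Q130 males, 3 per age, sequenced in batch 2, and were kept out of the comparison. Their values go against their labels. Over the 300 genes that varied between animals, 2 of 12 repeat libraries of both genotypes were closest to the first library of the animal they are labelled with, and the 12 closest libraries were those of 12 different animals, all among the 12 repeated. For the 6 Q130 repeats the closest library had the labelled age in 3. A mean log2 contrast of genes that rose less those that fell with age in WT striatum was -0.32 to 0.02 in first libraries of 6 months (-0.13 to 0.02 without the library apart) and -0.53 to -0.44 in those of 2 months. The repeats labelled 6 months had 0.11, -0.46 and 0.10, and those labelled 2 months -0.54, 0.07 and -0.02. The labels of the repeats were not reassigned.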

How the data were processed

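RNA sequencing libraries were made from flash-frozen tissue, per the labels' protocols. Aligner, counter and build: not given in the sources used here. Deposited by the authors were expected counts (estimated counts per gene, 8.19% of values not whole) for 32883 Ensembl rat identifiers, rounded here to whole numbers. Tables of normalized values and of transcripts were not used. Where an animal had a pair of columns, the dotted name was taken as the repeat library, an inference from the names.

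Fits used edgeR 4.0.16 under R 4.3.3: filterByExpr, TMM factors, robust dispersions and the quasi-likelihood F test, with sex as a covariate. The contrast between tissues used limma 3.58.1 (voom, animal as a block), and DESeq2 1.42.0 was an alternative. Standard errors belong to log2 fold changes. CPM used TMM library sizes over all striatal libraries. Log2 CPM had a prior count of 2 and needed a mean of 10 counts per library. Intervals have a confidence level of 95%. The edgeR script was tested on simulated data.

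Groups came from the labels, and each replicate is a separate animal. Squared differences between pairs of libraries within a group, as a median over genes, were at least 2.87 times those of counting noise (median 5.54). Genes were named by this rule: without symbols, at most 2 identifiers that rose and 2 that fell, with a mean of at least 1 CPM and called in both fits, by the largest change; others are said to be chosen after their values were seen. Lists of marker symbols had been planned, and 0 identifiers matched the reference names, so they were not tested. Tissue-enriched genes (also above 0 log2 CPM) and genes called with age in WT rats were used instead, chosen after the data had been seen, from WT libraries of 2 and 6 months. The comparison, its groups and its lists were chosen with earlier results of these data known. Alternatives were other scalings, filters, tools, a replicate block, and each library left out.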

Additional observations from a re-analysis of the deposited data

Results flagged for a closer look

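Of 34 groups of 10 values checked in Q130 striatum, 11 had a library far from the others, where the threshold used passes about 1 in 20 independent groups by chance. The 34 groups share libraries and genes, so no expected number is given. The library labelled 6 months male replicate 1 accounted for 8. It had a correlation of 0.938 with striatal libraries (the nearest other was 0.980), mean log2 CPM values of 0.47 for striatum-enriched genes (nearest 3.89), 3.82 for hippocampus-enriched genes (nearest 0.35), 1.72 for cortex-enriched genes (nearest 1.12), 4.38 for genes that rose with age in WT striatum (nearest 4.60) and 4.37 for genes that fell in all 4 WT tissues (nearest 4.65). ENSRNOG00000002265 was at 0.539 CPM in it (nearest 1.79) and ENSRNOG00000011073 at 147 CPM (nearest 116). Another 2 were in male replicate 4 of 2 months, at 3.96 CPM for ENSRNOG00000002265 (nearest 5.68) and 92.8 CPM for ENSRNOG00000011073 (nearest 108), and 1 was in male replicate 5 of 6 months, at 1.75 CPM for ENSRNOG00000017546 (nearest 0.799).

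Differences between groups that passed a test of the difference itself were the age effect of ENSRNOG00000011211 in Q130 minus WT striatum (0.45 on the log2 scale), the 76 genes of that test without the library apart, ENSRNOG00000020792 in males minus females without it (-0.78), and the 97 genes whose age effect differed between striatum and the other tissues, or 685 without the 4 animals.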

How the results depend on the processing

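The count of 1198 genes stayed within 1.5 times of itself with RLE or upper quartile factors, no filter, a filter at 1 CPM, DESeq2, limma-voom, no sex term and females only. It was 2863 without the library under 0.97, 3089 by limma-voom with quality weights and 2293 in a fit over 40 libraries, against 33 in males only (1045 without that library) and 0 in the repeat libraries of batch 2 (263 at an unadjusted p under 0.05). With 1 library left out it lay between 896 and 2863. With the replicate number as a block it was 942, and 2579 without the library under 0.97. No source says that these numbers pair animals: over 10 same-numbered pairs the correlation of deviations was -0.14 to 0.13, 1 of them over 0.1.

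The count of 1 gene for the age effect in Q130 minus WT rats was 76 without that library, 57 with quality weights, 14 by DESeq2, 0 with RLE factors (1514 unadjusted) and 1 with the replicate block. With 1 library left out it was 0 to 76, at most 3 in 19 of 20 fits and 0 in 11, which had 1360 to 1615 at an unadjusted p under 0.05. Without the library under 0.97 it was 39 with RLE factors, 85 by limma-voom and 203 by DESeq2, fits added after seeing the data. The count between tissues was 97 or 685. Between sexes it was 0 with and 1 without the library under 0.97 by edgeR, 3 and 19 by DESeq2, and 0 and 2 by limma-voom.

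ENSRNOG00000015159 kept its call in 35 of 35 fits other than that of the repeats, ENSRNOG00000008664 and ENSRNOG00000002265 in 34, each lost in males only, and ENSRNOG00000017546 in 33, lost in males only with and without the library apart. The log2 fold changes in males only were 1.82, -1.40 and -1.22 for these 3 genes, against 2.21, -1.39 and -1.34 in 20 libraries. The estimates thus kept their direction and most of their size. The 35 fits share most of their libraries and are not independent. They include the fit without the library apart more than once, and a call in it was part of the rule that named these genes. In the repeats, whose values go against their labels, the log2 fold change was -0.53 for ENSRNOG00000015159, -2.56 for ENSRNOG00000008664, -0.21 for ENSRNOG00000002265 and 0.19 for ENSRNOG00000017546, and the cause was not tested. The effect of depth on genes under 1 CPM was not tested, and their intervals were not summarised. Squared differences between pairs of libraries within a group were at least 2.87 times those of counting noise.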
